A study of Mus musculus with 105 samples.

Results

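Complexes III and IV of the respiratory chain and the mitochondrial ATP synthase were followed through oocyte maturation at the level of their nuclear-encoded messages. Members were chosen by gene name alone, as every gene called Uqcr, Cox with a number, or Atp5 with 1 letter. This gave 50 of the 20756 genes in the tables of footprints and mRNA and 49 genes in the table of poly(A) tail lengths, with 48 in all 3 tables. They comprised 8 complex III subunits, 18 complex IV subunits, 9 complex IV assembly factors, 5 subunits of the catalytic F1 part of the ATP synthase, and 10 subunits of its stalk and membrane part. Atp5s was found in the tail table only, where it had no value, and Cox7b2 and Cox8b in the other tables only.

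The study measured ribosome footprints (Ribo-seq, the RNA fragments that ribosomes shield from RNase), mRNA by Smart-seq2, which copies polyadenylated RNA, and the length of poly(A) tails, in mouse oocytes. Values existed for 53 of 105 labelled samples, and the other 52 were not analysed here. All oocytes came from C57BL/6 females of 5 or 8 weeks given 5 IU PMSG and 5 IU hCG, the hormones that stimulate follicle growth and trigger ovulation. Footprints of single cells came from 18 full-grown oocytes (FGO) and 20 mature oocytes arrested at metaphase II (MII). Further MII oocytes heterozygous (Btg4 Het) or knockout (Btg4 KO) for Btg4 had footprints (3 and 3 libraries) and mRNA (2 and 2 libraries). Tail libraries were 1 of wild-type FGO labelled SN, 1 of wild-type MII, 1 of MII Btg4 Het and 2 of MII Btg4 KO. The controls of the knockout are therefore heterozygotes, which carry the mutant allele as well. The design of the mutant allele, the number of oocytes in each Btg4 or tail library and the animals behind them are not known here, and every p-value below therefore reflects library-to-library spread, which may be technical.

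Complex III passes electrons from ubiquinol to cytochrome c, and complex IV passes them from cytochrome c to oxygen. Both pump protons, and the ATP synthase makes ATP as the protons flow back through its ring of c subunits. Oocytes take up pyruvate and depend on this chain for ATP. Transcription stops in the full-grown oocyte, so that messages are afterwards only stored, translated or degraded. BTG4 is an adaptor that brings the CCR4-NOT deadenylase to messages during maturation.

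Footprint and mRNA levels are the deposited FPKM (fragments scaled by gene length and library size), relative to each library's own total, with no spike-in named. Genes at 1 FPKM or more numbered 4338 to 8826 per FGO, 3645 to 6351 per MII oocyte, 5899 to 7588 in the Het and 7062 to 8398 in the KO footprint libraries, and 7959 to 9151 in the mRNA libraries. Whole reads could be recovered from the steps between low footprint values for 8279 genes, 24 members among them. These reads numbered 14417 to 129724 per FGO, 5636 to 31151 per MII oocyte, and 36155 to 114812 per Btg4 library. The 8279 genes held 20.8% of footprint FPKM, so these reads are only part of each library. MII oocytes 2 and 4 held far more member footprints than the other 18, and counts of single-oocyte ratios are given with and without them. Hemoglobin genes were listed above 0 in 9 FGO and 1 MII oocyte.

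All 12 oocyte markers, such as Zp3 and Gdf9, were above 0 in both stages. Of these markers 7 were 4-fold or more lower in MII and 2 higher, with a median log2 ratio of -2.20 (-3.16 without MII oocytes 2 and 4), a shift of about the size given below for the members. Markers of cumulus and granulosa cells summed to 2.64 to 111 FPKM per FGO and 70.7 to 227 per MII oocyte, with 17 of 18 genes above 0 in any FGO, 13 in any MII oocyte and Has2 at 0 throughout. Blood and immune markers summed to 0 to 809 FPKM per FGO and 0 to 166 per MII oocyte, with all 10 genes above 0 in any FGO and 6 in any MII oocyte. In the Btg4 mRNA libraries cumulus markers summed to 360 to 443 FPKM in Het and 273 to 314 in KO, with Amh, Foxl2, Krt18 and Hsd17b1 at 0. The Btg4 footprint libraries went the other way, with sums of 246.3 to 427 FPKM in Het and 417.2 to 578.5 in KO. The part of these markers in the results was not tested.

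The single oocytes address how footprints on messages of the chain differ between the immature and the mature egg. These oocytes have no mRNA values, so less message and less translation of it cannot be told apart here. Nearly every member was lower in MII. Of the 44 members that averaged 1 FPKM or more over 38 oocytes, 22 were 4-fold or more lower in MII and 1 was 4-fold or more higher. Over all 8788 genes tested, 11.2% were that much lower and 14% that much higher. The median log2 ratio of MII over FGO, on mean FPKM + 1, was -2.004 for members and -0.15 for all genes. No animals are named for the oocytes, so a stage is 1 sample here and these are descriptions without a test.

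Member footprints made up 3.52% to 8.33% of a library's FPKM in FGO (median 5.61%, 18 oocytes). In MII the share was 0.128% to 3.93% (median 0.586%, 20 oocytes). MII oocytes 2 and 4, at 3.46% and 3.93%, lay at the edge of the FGO range or within it, and the other 18 MII oocytes ended at 1.201%. For the 24 members with recovered reads, MII oocytes 2 and 4 both lay within the FGO range and the other 18 below it. These members held 0.89% to 2.25% of recovered reads in FGO and 0.11% to 0.417% in the other 18 MII oocytes. MII oocyte 2 was at 1.10% (95% exact binomial interval 0.985% to 1.22%) and MII oocyte 4 at 1.34% (1.17% to 1.54%). These intervals cover counting error only.

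**Figure D1:**
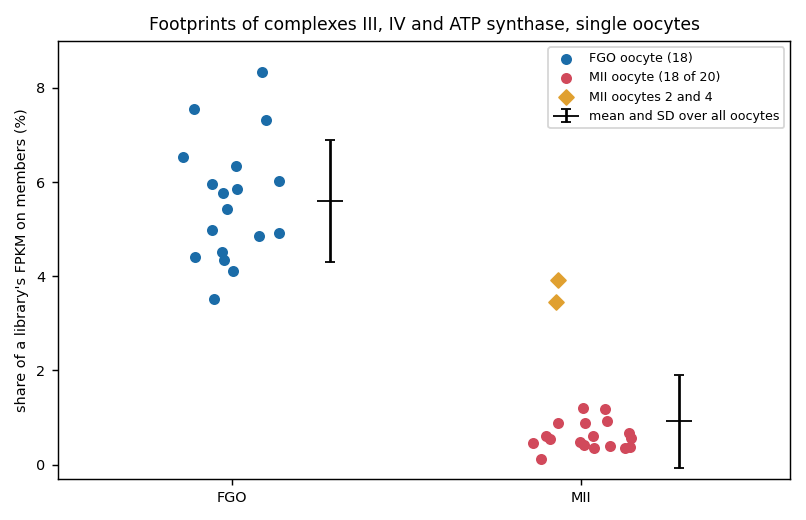
Share of each library's footprint FPKM (%) on the 50 members, by stage; each point is 1 oocyte, and bars give the mean and SD over all oocytes of the stage. The 18 FGO lie between 3.52% and 8.33%, MII oocytes 2 and 4 (diamonds) at 3.46% and 3.93%, and the other 18 MII oocytes at 1.201% or below.

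Without MII oocytes 2 and 4, 30 of 45 members and 1361 of 8753 genes were 4-fold or more lower and 1 member was higher, with a median log2 ratio of -2.75 for members. By role these were 7 of 8 genes of complex III, 8 of 14 complex IV subunits, 4 of 8 assembly factors, 2 of 5 F1 genes and 9 of 10 stalk and membrane genes. With the 10 hemoglobin-listing oocytes left out, 18 of 45 members and 775 of 8272 genes were lower and 1 member was higher. After the oocytes were scaled to a common median, 37 of 46 members and 2321 of 9005 genes were 4-fold lower, with no member and 619 genes 4-fold higher. That scaling moved the median log2 ratio of all genes from -0.15 to -1.09 and that of members from -2.004 to -3.18.

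Complex III was lower in a core protein and in small subunits, with 4 of 8 genes 4-fold or more lower. Uqcrc2, a core protein of the complex, measured 8.74, 51.7 and 176 FPKM in the lowest, median and highest FGO. The corresponding MII values were 0, 0 and 52.8 FPKM, with 7 of 20 oocytes above 0 and a log2 ratio of -2.92. The small subunits Uqcr10 and Uqcrq, which sit at the edge of the complex, had log2 ratios of -3.36 and -3.17. Uqcrq was above 0 in all 18 FGO (45.1 to 1857 FPKM) and in 7 MII oocytes (up to 431 FPKM in oocyte 2). Uqcrfs1, the iron-sulfur (Rieske) protein that takes electrons from ubiquinol, had a log2 ratio of -1.33. Uqcrc1, the other core protein, was low in both stages, at a mean of 1.88 FPKM in FGO and 0.80 in MII. In 7 of the 8 complex III genes the median MII oocyte was at 0, and Uqcrh, the hinge protein by the cytochrome c site, was the exception with 503 FPKM in the median FGO and 85.7 in the median MII oocyte.

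Among complex IV subunits, 6 of 14 tested genes were 4-fold or more lower. Cox7b, a small subunit of the enzyme, measured 0, 272 and 972 FPKM in the lowest, median and highest FGO and was at 0 in 15 of 20 MII oocytes, a log2 ratio of -3.04. Cox7a2l had a log2 ratio of -2.72, and Cox4i1, the regulatory subunit with the ATP site, one of -2.71. Cox4i1 ranged over 23.2, 159 and 469 FPKM in FGO and 0, 4.95 and 162 FPKM in MII, with the highest value in MII oocyte 2. The stages overlapped for each of these genes, and MII was lower in 88.9% to 93.1% of the FGO and MII pairs.

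Cox6b2, the testis isoform of a subunit at the cytochrome c side, went the other way. Its lowest, median and highest values were 28.0, 203 and 806 FPKM among FGO and 0, 338 and 996 FPKM among MII oocytes, 19 of which were above 0. Means were 243 ± 216 FPKM (SD, 18 oocytes) and 415 ± 306 FPKM (SD, 20 oocytes), a log2 ratio of 0.77 within the spread between oocytes. Its somatic counterpart Cox6b1 went from a median of 385 FPKM to 10.8 FPKM, a log2 ratio of -1.89. Cox6b2 exceeded Cox6b1 in 5 FGO, in 15 MII oocytes, and in every Het and KO library of both assays. Reads shared between such paralogs could be split in counting, so the level of each is uncertain.

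The remaining isoforms specific to muscle, lung or testis were near the floor. Cox7b2 and Cox8b were at 0 in every oocyte, and the muscle isoforms Cox6a2 and Cox7a1 were above 0 in 1 FGO each and in no MII oocyte. Cox4i2, the lung isoform, was above 0 in 5 FGO and 1 MII oocyte, and Cox8c, a testis isoform, in 3 FGO and 1 MII oocyte. Their ubiquitous counterparts carried the signal: Cox6a1 had medians of 229 FPKM in FGO and 45.3 in MII, Cox7a2 of 497 and 56.2, and Cox8a of 423 and 90.5.

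Of the assembly factors, 4 of 7 tested were 4-fold or more lower. Cox17, the chaperone that delivers copper to complex IV, measured 101, 506 and 1438 FPKM in the lowest, median and highest FGO. It was above 0 in 6 of 20 MII oocytes, with 501 FPKM in oocyte 2 and 846 in oocyte 4, a log2 ratio of -2.23. Cox14 and Cox16, which act early in building the enzyme, had log2 ratios of -2.96 and -2.53. Cox19, another copper protein, had the lowest log2 ratio of the role, -3.91, and is counted among the 4. It was above 0 in 7 FGO and at 0 in all 20 MII oocytes, and these were 20 recovered reads in all FGO together. Cox19 thus passed the filter on low values through FGO alone, where it was high.

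Cox15, which with Cox10 makes the heme A of complex IV, was the only member 4-fold or more higher in MII. Its log2 ratio was 2.59, with 6 FGO above 0 (at most 3.68 FPKM) and 11 MII oocytes above 0 (at most 48.7 FPKM). Recovered reads numbered 15 in all FGO and 65 in all MII oocytes, and 24 of the latter came from MII oocyte 2. The median FGO had 0 reads, so Cox15 passed the filter on low values largely through MII, where it was high. Without MII oocytes 2 and 4 its log2 ratio was 2.39. Cox10 differed little between stages, at a mean of 4.13 FPKM in FGO and 2.49 in MII.

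The ATP synthase held both the steepest and the flattest members. Atp5b, the catalytic beta subunit, measured 15.7, 63.0 and 197 FPKM in the lowest, median and highest FGO and 5.99, 47.2 and 132 FPKM in MII. It was above 0 in all 38 oocytes, with a log2 ratio of -0.28 and MII lower in 57.5% of pairs. Atp5a1, the alpha subunit that alternates with beta in the same ring, had a log2 ratio of -1.97, from 16.7, 70.8 and 261 FPKM in FGO to 0, 10.9 and 170 FPKM among MII oocytes. In recovered reads, Atp5a1 had 2176 in all FGO and 168 in all MII oocytes, 58 of them in MII oocyte 4. Atp5e, the epsilon subunit of the central stalk, had a log2 ratio of -3.05, and was above 0 in 6 MII oocytes only. Atp5d and Atp5c1, the delta and gamma subunits of that stalk, had log2 ratios of -1.65 and -1.29.

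In the stalk and membrane part 7 of 10 genes were 4-fold or more lower. Atp5g1, Atp5g2 and Atp5g3 encode the same mature c subunit with different import sequences. Atp5g1 was above 0 in every FGO (8.38 to 375 FPKM) and in MII oocytes 2 and 4 only (20.4 and 41.2 FPKM), with the other 18 at 0, a log2 ratio of -4.18. Atp5g3 had a log2 ratio of -2.89, with 3 MII oocytes above 0, and Atp5g2 one of -1.65, with 11 above 0. Atp5g2 was thus the c subunit gene with footprints in most MII oocytes. Atp5h, the d subunit of the outer stalk, had a log2 ratio of -3.70 and Atp5k, the e subunit by which ATP synthases pair, one of -3.36. Atp5k measured 1325 and 1257 FPKM in MII oocytes 2 and 4 and at most 152 FPKM in the other 18. Atp5j, coupling factor 6 of the outer stalk, differed least here, with a log2 ratio of -1.46, and Atp5j2, the f subunit of the membrane part, had one of -2.13.

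Other genes of the pathway were lower too, in part. Complex I had 16 of 36 tested genes 4-fold or more lower and none that much higher, with a median log2 ratio of -1.95. Assembly factors outside the name rule had 7 of 19 lower, mitochondrial ribosomal proteins 18 of 73 lower and 1 higher, and complex II 2 of 8 lower and 1 higher, with medians of -1.05, -1.12 and -0.30. Of the regulators of mitochondrial gene expression, 2 of 7 were lower and 1 higher. Without MII oocytes 2 and 4, the lower genes were 23 of 36 in complex I, 7 of 19 assembly factors, 26 of 74 mitochondrial ribosomal proteins, 2 of 8 in complex II and 2 of 7 regulators.

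**Figure D2:**
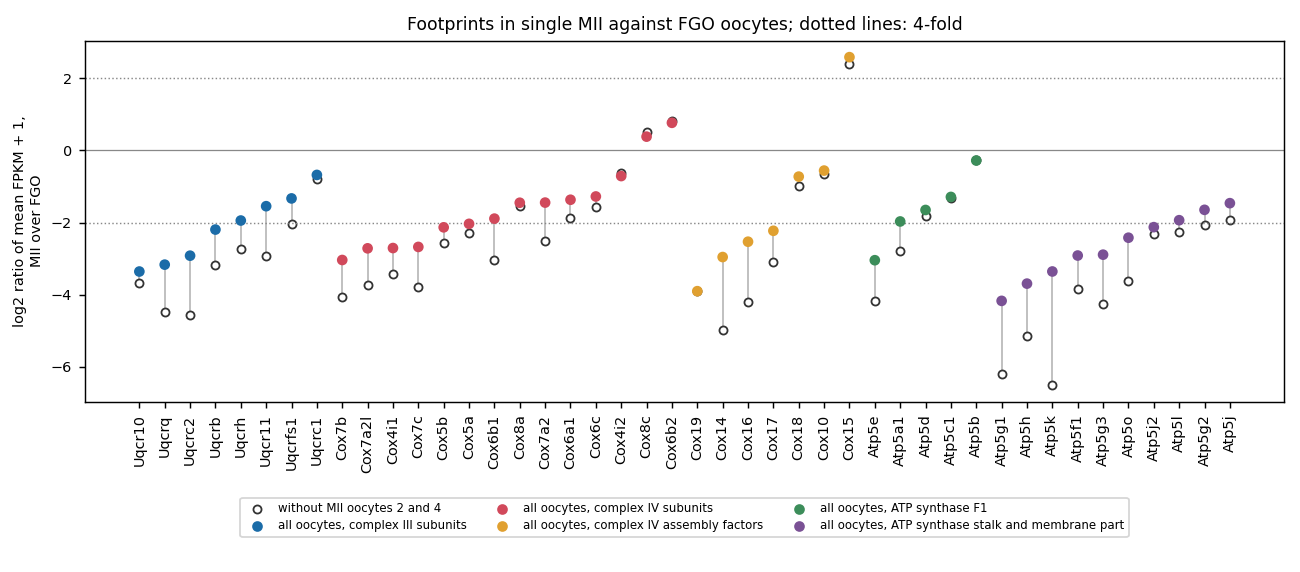
Log2 ratio of mean FPKM + 1 in MII over FGO for the 44 tested members, ordered by role; filled points use all oocytes and open points leave out MII oocytes 2 and 4, and the dotted lines mark 4-fold. Atp5b lies at -0.28, Cox6b2 at 0.77 and Cox15 at 2.59, while 22 members lie past the lower line, and most of these have a lower open point.

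MII depth limits how far single values can be read. The 24 members with recovered reads had 11721 reads in the 18 FGO and 1085 in the 20 MII oocytes, of which 342 were in oocyte 2, 199 in oocyte 4 and 544 in the other 18. Reads were recovered only for genes with enough values below 12 reads. That favours members with few reads, and Atp5b and Cox6b2 were not among the 24. In 13 of the 24 the median MII oocyte had 0 reads. The FPKM given to 1 read depended strongly on the gene. In the median FGO 1 read was worth 84.3 FPKM for Atp5e and 0.763 for Atp5a1, a 110-fold gap between genes. FPKM shares and orders of level between genes carry this factor. So do ratios on FPKM + 1 where a group is at or near 0, since the 1 FPKM added weighs less for a gene whose reads are worth more.

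The promoters of members were searched for letters known from respiratory genes. A promoter was kept only where its start fell exactly on the outermost end of the gene in RefSeq. This held for 31 of the 50 members, and all 11 of these with a match below lay on the minus strand. Whether genes of the plus strand were kept was not checked, so the shares below hold for the promoters kept only. The 250 bases before that start were searched on both strands for CCGGAAG (the core bound by ETS factors such as GABP), GCGCATGC (part of the palindrome of NRF1), AAGATGG (YY1) and CAAGGTCA (ERR). GABP and NRF1 are known as regulators of respiratory genes. CCGGAAG was in 9 of 31 member promoters (29%), in 8.23% of 9544 promoters searched in the same way, and in 14.9% of the 3775 among them whose genes were expressed. GCGCATGC was in 4 members (12.9%) against 2.78% of all and 5.11% of expressed genes, AAGATGG in none against 4.46%, and CAAGGTCA in 1 (3.23%) against 109 of 9544. A match is a description of the letters only, and the 8-base word and its reverse complement overlap within the NRF1 palindrome. Of 31 searched members 11 held a match, and of the 13 that were 4-fold or more lower in MII 4 did, which is no larger a share. For these 4, a stretch of 60 bases around the match is shown 5′ to 3′ on the gene's strand, which is the minus strand in each case, with the matched letters in capitals, from RefSeq on GRCm38.p6. The stretches begin 80 bases before the start in Atp5k, 132 in Atp5e, 68 in Atp5h and 60 in Cox16.
Atp5k (chr5:108434420-108434479): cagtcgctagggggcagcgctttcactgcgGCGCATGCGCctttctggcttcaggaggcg
Atp5e (chr2:174464174-174464233): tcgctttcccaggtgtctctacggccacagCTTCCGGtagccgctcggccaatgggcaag
Atp5h (chr11:115419928-115419987): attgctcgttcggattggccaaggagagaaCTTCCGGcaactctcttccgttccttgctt
Cox16 (chr12:81485138-81485197): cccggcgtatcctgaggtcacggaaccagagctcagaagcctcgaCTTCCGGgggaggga
Atp5k held the NRF1 palindrome, whose letters read the same on both strands, and the other members shown held the ETS core on the opposite strand.

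To ask what loss of Btg4 does to these messages, MII oocytes of Btg4 KO were compared with Btg4 Het. The Het libraries held 3293 and 4774 FPKM of Btg4 mRNA and the KO libraries 1754 and 2345 FPKM, a log2 difference of -0.97 (SE 0.35, adjusted p = 0.0889, limma). Btg4 footprints went from 7009, 6346 and 6134 FPKM in Het to 1148, 971 and 907 FPKM in KO, a difference of -2.69 (SE 0.23, adjusted p = 0.00654, limma). Neither was absent from KO, and which part of the gene was mutated is not known here.

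Messages of the chain had higher relative levels in KO. Of 41 members tested, 23 rose and none fell (limma, adjusted p below 0.05 over all genes). Over all 8865 genes 18.9% rose and 0.62% fell. The median log2 difference was 1.28 for members and 0.14 for all genes. Both KO libraries were above both Het libraries in 34 of the 41 members, and in 38.9% of all genes. As a share of FPKM, member messages were 0.541% and 0.583% of the Het libraries and 0.974% and 1.22% of the KO libraries. Levels are relative to each library's total, so more of these messages and less of all others cannot be told apart. Smart-seq2 copies polyadenylated RNA, and whether the tails changed how much of a message was copied was not tested.

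The split of all genes depended on scaling. When libraries were scaled to a common median the median of all genes moved to -0.26, 999 genes rose and 929 fell, and 15 members rose and 1, Cox10, fell. With quantile normalization 1121 genes rose and 657 fell, and 19 members rose and none fell. All 23 members kept a positive difference in every alternative, and 12 of them passed the threshold in each of the 9. The calls held least often were Cox6a1 (1 of 9 alternatives), Cox18 (3), Cox5b (4) and Atp5k (4), and the other 7 held in 6 to 8.

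The largest rises were in small complex IV subunits and the copper chaperone. Cox7c, a small subunit at the membrane, measured 5.60 and 4.08 FPKM in Het and 223 and 415 FPKM in KO, a log2 difference of 5.72 (SE 0.38, adjusted p = 0.000225, limma). Cox17 measured 4.65 and 18.7 FPKM in Het and 325 and 577 FPKM in KO, a difference of 5.36 (SE 0.56, adjusted p = 0.000881, limma). Cox7b measured 9.55 and 4.34 FPKM against 163 and 181 FPKM, a difference of 4.53 (SE 0.38, adjusted p = 0.000514, limma). Both KO libraries were above both Het libraries for each of these 3 genes.

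Complex IV as a whole held 9 risers among 13 tested subunits and 4 among 6 tested assembly factors. The subunits Cox4i1, Cox7a2l, Cox6b1, Cox5b, Cox6c and Cox6a1 rose by 1.02 to 1.63 on the log2 scale. Cox6a2, the muscle isoform, rose from Het values of 0.242 and 0.414 FPKM to KO values of 4.67 and 6.15 FPKM, and passed the filter on low values through its KO libraries alone. Other subunits did not pass the test. Cox8a, a small ubiquitous subunit, measured 386 and 469 FPKM in Het and 322 and 367 FPKM in KO, without overlap, a difference of -0.31 (adjusted p = 0.487, limma). Cox7a2, the ubiquitous partner of Cox7a1, had a difference of 1.11 (adjusted p = 0.0682, limma). Cox5a had a difference of 0.30 (adjusted p = 0.543, limma) and the testis isoform Cox6b2 one of -0.42 (adjusted p = 0.401, limma). Among assembly factors Cox16 rose by 3.17, Cox14 by 2.62 and Cox18, which inserts a core subunit into the membrane, by 1.202. Cox10 measured 119 and 93.2 FPKM in Het and 74.5 and 59.6 FPKM in KO, without overlap, a difference of -0.65 (adjusted p = 0.175, limma). Cox11, another copper protein, had a difference of -0.32 at 0.848 to 1.78 FPKM.

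Complex III was split. Uqcrfs1, the Rieske protein, measured 7.15 and 4.79 FPKM in Het and 44.4 and 34.9 FPKM in KO, a difference of 2.56 (SE 0.35, adjusted p = 0.00231, limma). Uqcrb, a small subunit also called the ubiquinone-binding protein, rose by 2.49 (SE 0.40, adjusted p = 0.00399, limma). Uqcr11, Uqcrq, Uqcr10 and Uqcrh had differences of 0.88 to 1.55 and did not pass the threshold, although both KO libraries were above both Het libraries in each. Uqcrc2, at 214 and 198 FPKM in Het and 166 and 176 in KO, had a difference of -0.27 (adjusted p = 0.527, limma).

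In the ATP synthase most calls past the threshold lay outside the catalytic head, which depended on the fit. Of the stalk and membrane genes 7 of 10 rose, and of the F1 genes 1 of 5. Atp5j measured 3.45 and 1.64 FPKM in Het and 28.5 and 45.5 FPKM in KO, a difference of 3.43 (SE 0.41, adjusted p = 0.00133, limma). Atp5h rose by 3.06, Atp5l, the g subunit, by 2.14, Atp5f1, the b subunit of the outer stalk, by 2.06, and Atp5o, which joins that stalk to F1, by 1.73. Atp5k rose by 1.32 (SE 0.37, adjusted p = 0.0401, limma). Atp5a1 was the riser in F1, from 49.3 and 31.8 FPKM to 143 and 112 FPKM, a difference of 1.65 (SE 0.33, adjusted p = 0.0112, limma). Its partner Atp5b measured 207 and 253 FPKM in Het and 246 and 218 FPKM in KO, a difference of 0.02 (SE 0.29, adjusted p = 0.968, limma), and the groups overlapped. Atp5c1, Atp5d and Atp5e had differences of 1.28, 1.00 and 0.99 (adjusted p = 0.0685, 0.102 and 0.142, limma), with both KO libraries above both Het libraries in each. Atp5j2 had one of 0.99 (adjusted p = 0.0818, limma). Among the c subunit genes Atp5g2 rose by 1.86 (SE 0.32, adjusted p = 0.00583, limma), while Atp5g3 (0.97) and Atp5g1 (0.82) did not pass the threshold.

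**Figure D3:**
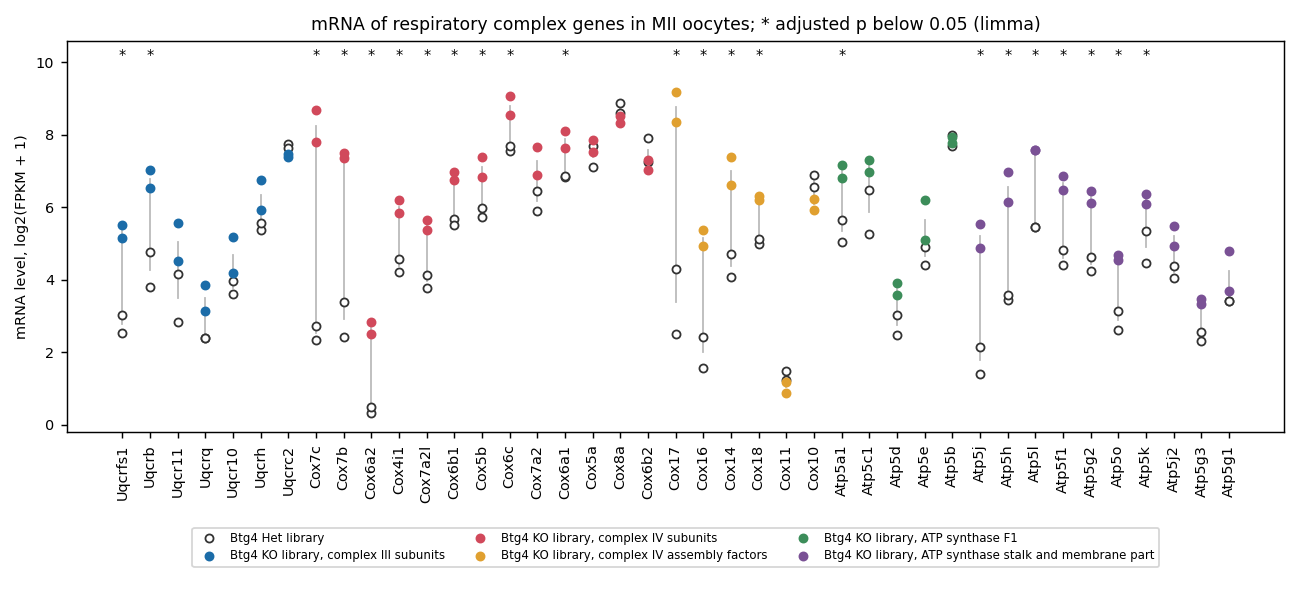
mRNA level, log2(FPKM + 1), of the 41 tested members in each Btg4 Het (open) and KO (filled) library of MII oocytes, ordered by role and by difference; grey lines join group means and stars mark adjusted p below 0.05. Cox7c, Cox17 and Cox7b show the widest gaps, and Atp5b, Cox8a and Uqcrc2 show differences of 0.02, -0.31 and -0.27.

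The 9 members below the filter were Cox7b2, Cox8b and Cox7a1, at 0 in every library, and Cox4i2, Cox8c, Cox15, Cox19, Cox20 and Uqcrc1, at most 1.48 FPKM of mRNA. The c subunit trio, the Cox6a, Cox6b, Cox7a and Cox8 pairs and Cox4i1 with Cox4i2 are similar copies whose reads could be split in counting.

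Genes of the pathway outside the name rule rose as well. Of 6 subunits known under other names 4 rose, with Atp5md, a membrane subunit of the ATP synthase, at 2.11 and its inhibitor Atpif1 at 1.77. Complex II had 6 of 8 risers (median 2.14), complex I 28 of 36 (median 2.02), assembly factors 7 of 15 (median 1.13), mitochondrial ribosomal proteins 36 of 70 (median 1.18) and regulators 2 of 7 (median 0.13). No gene of these lists fell.

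Footprints gave no member past the threshold. None of 41 tested members passed the threshold in either direction (limma), while 3.21% of 8526 genes rose and 0.328% fell. At an unadjusted p under 0.05 there were 7 members, and 18.2% of all genes, and the median log2 difference was -0.59 for members and 0.27 for all genes. Every KO library was below every Het library in 6 members, and in 7.69% of all genes. The reverse was seen in no member, and in 16.8% of all genes.

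The member nearest to the threshold was Atp5k, at 135, 199 and 174 FPKM in Het and 0, 0 and 41.5 FPKM in KO, a difference of -5.59 (SE 1.43, adjusted p = 0.0960, limma). Cox8a measured 370, 364 and 428 FPKM in Het and 168, 190 and 205 FPKM in KO, a difference of -1.04 (SE 0.27, adjusted p = 0.104, limma). Its mRNA differed by -0.31. Cox5a measured 109, 125 and 109 FPKM in Het and 81.9, 6.81 and 9.82 FPKM in KO, a difference of -2.59 (SE 0.88, adjusted p = 0.181, limma). Cox7b measured 69.5, 137 and 119 FPKM against 0, 0 and 57.0 FPKM, a difference of -4.76 (SE 1.55, adjusted p = 0.166, limma), although its mRNA rose. In recovered reads its footprints were 3, 3 and 2 against 0, 0 and 2, with means of 108 and 19.0 FPKM. Atp5j2 was at 297, 411 and 628 FPKM against 94.9, 0 and 85.9 FPKM, a difference of -4.39. Atp5a1 was at 28.5, 61.1 and 33.3 FPKM against 23.5, 12.2 and 9.57 FPKM, a difference of -1.40. These are the 6 members whose groups did not overlap.

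At the other end, Cox7c measured 129, 0 and 0 FPKM in Het and 490, 0 and 174 FPKM in KO, a difference of 3.12 with an SE of 2.79. Atp5j was at 0 in all Het libraries and at 18.3, 12.9 and 0 FPKM in KO, which are 1, 1 and 0 recovered reads. Cox6c, at 869, 0 and 69.9 FPKM in Het and 936, 69.6 and 201 FPKM in KO, had a difference of 2.58. Complex III lay between -4.50 (Uqcr10) and 1.83 (Uqcrb), with Uqcrq at -3.31 and Uqcrc2 at 1.06 and a median of -1.003 over 7 tested genes. F1 had a median of -1.33, with Atp5d lowest at -2.51, Atp5e at -1.33, Atp5b at -0.41 and Atp5c1 highest at 0.83, and the stalk and membrane part one of 0.91. In that part Atp5g2 was at 16.0, 0 and 0 FPKM in Het and 77.1, 0 and 0 FPKM in KO, and Atp5o was at 8.63 FPKM in Het library 1 and at 0 in all others. Het libraries held 289, 132 and 90 reads on the 24 members with recovered reads and KO libraries 140, 68 and 75, so that most members rest on a few reads per library. Assembly factors lay between -0.59 (Cox18) and 2.53 (Cox14, at 0, 0 and 180 FPKM in Het and 380, 89.6 and 0 FPKM in KO), with Cox11 at 0.97, Cox16 at 0.60 and Cox15 at 0.24. The 24 members together held a share of recovered reads of 0.211% to 0.258% in Het and 0.0592% to 0.205% in KO. Members held 0.672%, 0.676% and 0.592% of FPKM in the 3 Het libraries, against 0.658%, 0.2003% and 0.2795% in KO, so KO library 1 lay within the Het range.

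**Figure D4:**
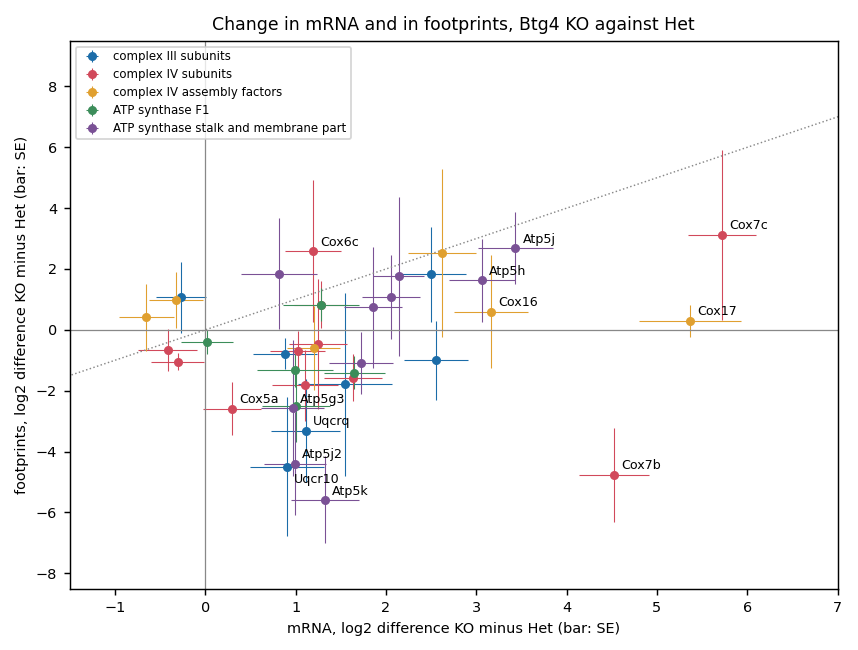
Log2 difference of Btg4 KO minus Het in mRNA (horizontal) and in footprints (vertical) for the 39 members tested in both; points are coloured by role, bars are SE and the dotted line marks equal differences. Most members lie to the right of 0 in mRNA (23 of the 41 tested rose) and below the dotted line, with footprint bars far longer than mRNA bars; Cox17 lies at 5.36 and 0.30.

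Footprint efficiency, the change in footprints relative to the change in mRNA, was tested through the genotype by assay term of a joint fit. Of 39 members 34 had a negative value, with a median of -1.71 against 0.24 for all genes. Only Cox17 passed the threshold, with a difference of -5.06 (SE 0.95, adjusted p = 0.0431, limma). Over all 7382 genes 0.853% rose and 0.447% fell. When libraries were scaled to a common median, 169 genes rose and 38 fell, against 63 and 33 as deposited. Cox17 footprints measured 99.9, 294 and 129 FPKM in Het and 181, 128 and 307 FPKM in KO, which overlapped. In recovered reads these were 2, 3 and 1 against 2, 2 and 5. This call was lost in 12 of 15 alternatives, among them the fit with the replicate number as a block (adjusted p = 0.0623, limma), with adjusted p between 0.0343 and 0.268 (limma) over the alternatives. The next members were Cox7b at -9.29 (SE 2.16) and Atp5a1 at -3.05 (SE 0.71), both with adjusted p = 0.0801 (limma). The Cox7b value rests on the few footprint reads given above. Uqcrc2 (1.33), Cox6c (1.40), Cox11 (1.29), Cox10 (1.06) and Atp5g1 (1.03) were the members with a positive value, none past the threshold. Complex III was lowest in Uqcr10 (-5.40), Uqcrq (-4.42) and Uqcrfs1 (-3.56), with Uqcrb at -0.66. Further complex IV values were -3.21 in Cox4i1, -2.93 in Cox7a2, -0.25 in Cox6b2, -2.57 in Cox16 and -1.79 in Cox18. In F1, Atp5d (-3.51) and Atp5e (-2.32) were lower than Atp5c1 (-0.45) and Atp5b (-0.43). The stalk and membrane part reached from Atp5k (-6.91), Atp5j2 (-5.38) and Atp5g3 (-3.53) to Atp5l (-0.39) and Atp5g1 (1.03). None of these passed the threshold. Some low values rest on KO libraries at 0. Atp5g3 footprints were 39.7, 66.9 and 29.2 FPKM in Het and 401, 0 and 0 FPKM in KO, with means of 45.3 and 134 FPKM. Uqcr10 footprints were 142, 93.1 and 366 FPKM in Het and 430, 0 and 0 FPKM in KO. In complex I 1 of 34 tested genes fell in efficiency and none rose.

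Poly(A) tails were long in FGO and sparsely measured in MII. Of 49 members 27 had a value in FGO, from 40.9 nucleotides in Cox10 to 103 in Atp5e, with a median of 66.6. The median over all 6353 genes with an FGO value was 54.1 nucleotides, and the middle 50% lay between 45.3 and 63.3. Complex III members had 49.0 (Uqcr10) to 73.1 nucleotides (Uqcrc1). Complex IV subunits had 56.5 (Cox7a2l) to 102 nucleotides (Cox7a2), assembly factors up to 99.6 (Cox14), and the stalk and membrane part 56.3 (Atp5g1) to 93.0 (Atp5j2). Each group is 1 library apart from the 2 of KO, so tails were not tested. How many reads lie behind a value is unknown here.

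In MII controls only 5 members had a value. Atp5b had 66.6 nucleotides in FGO, 38.6 in MII wild type and 85.8 in MII Btg4 Het, so that the controls differed from each other by more than either differed from FGO. Cox7a2 had 102 nucleotides in FGO and 25.8 in MII wild type. Both members with values in FGO and MII wild type were thus shorter by 20 nucleotides or more in MII, as were 31.2% of 224 genes, but Atp5b was longer than FGO in the Het library. Cox8a had 55.3 nucleotides in MII wild type and 53.6 in Het, Cox6b2 64.3 in Het and Cox6a1 60.1 in Het.

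In the KO libraries 17 members had a value, 12 of which had none in the controls. None of the 3 members with values in Het and both KO libraries was longer in both, whereas 26.1% of 272 genes were. Cox8a had 53.6 nucleotides in Het and 43.3 and 43.6 in KO. Cox6a1 went from 60.1 in Het to 30.4 and 20.6, and Atp5b from 85.8 in Het to 72.8 and 69.5. Against wild-type MII, Atp5b was longer in KO and Cox8a shorter. Cox6b2 had 64.3 nucleotides in Het and 69.7 in KO library 1.

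Members with both FGO and KO values were shorter in KO in 11 of 12 cases, by a median of 41.8 nucleotides. Over all 1567 such genes 64.3% were shorter, by a median of 12.7. The FGO library is wild type and the KO libraries are MII, so stage and genotype cannot be told apart here. Atp5a1 went from 70.9 nucleotides in FGO to 18.1 and 22.3 in KO, Cox14 from 99.6 to 49.9 and 46.9, and Atp5e from 103 to 22.7. Uqcrc2 went from 64.7 to 18.9 and Uqcrh from 72.7 to 37.7. Atp5b was the exception, at 66.6 nucleotides in FGO and above that in both KO libraries. Of the 27 members with an FGO value, 7.41% also had one in either MII control and 44.4% in either KO library, against 10.0% and 24.7% of all genes with an FGO value. In the authors' deposited table, the columns merged over libraries gave Cox7a2 24.8 nucleotides in MII controls and 35.4 in KO, and Cox6c 25.6 and 31.7. They gave Cox6a1 60.09 in MII controls and 23.71 in KO, and Cox8a 54.01 and 43.45. Atp5b had 71.34 and 71.04 there and Cox6b2 64.26 and 65.05, so the directions were mixed. Cox17 had a merged value in KO only, 24.6 nucleotides. The 6 subunits of these complexes encoded by the mitochondrial genome had no tail value in any library.

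**Figure D5:**
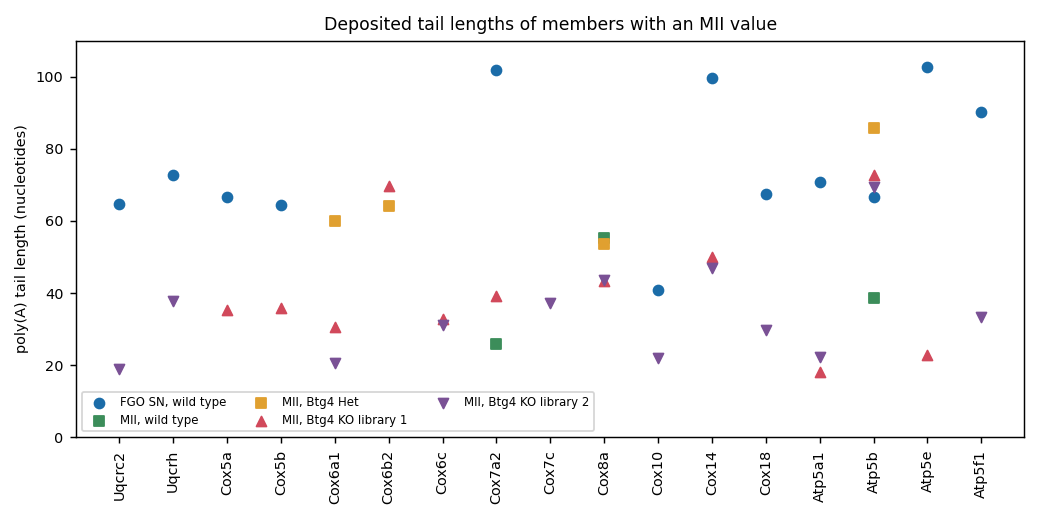
Deposited poly(A) tail length (nucleotides) of the 17 members with a value in any MII library; each point is 1 library, and a missing point means no value. In 11 of 12 members with FGO and KO values the KO points lie below the FGO point, and Atp5b lies at 66.6 in FGO and 72.8 and 69.5 in KO.

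Across members the measures were only loosely related. The mRNA difference between KO and Het had a Spearman rho of 0.27 with the footprint difference (39 members), -0.24 with the log2 ratio of MII over FGO in single oocytes (39 members) and 0.21 with the FGO tail length (25 members). The first pair shares genotype groups but no library, and genes are not independent replicates, so these are descriptions.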

How the data were processed

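Ribo-seq and Smart-seq2 values are the FPKM the authors deposited per gene and library. The submitters' processing notes list the builds mm9 and hg19 and, without roles, Cufflinks 2.2.1, Bowtie2 2.2.2, STAR 2.5.3a, cutadapt 1.14 and Trim Galore 0.4.2. Tail lengths are nucleotides per gene and library as deposited by the authors, where 0 was read as no value, and the tail caller is unknown here. The authors' merged tail columns carry no SD or n.

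Genes averaging 1 FPKM or more were tested with limma 3.58.1 (R 4.3.3, trend, log2(FPKM + 1)), with Benjamini-Hochberg adjustment over all genes and a threshold of 0.05. The added 1 FPKM understates changes of genes near 1 FPKM. Where 1 read is worth many FPKM, a 0 against a few reads gives a large difference instead. Efficiency was the genotype by assay interaction. Single oocytes were compared by mean FPKM + 1 and a 4-fold limit, without a test. Whole reads were recovered from footprint steps below 12 reads with a tolerance of 0.03 read, and 78.6% of low values came out whole. Scripts were tested on simulated data.

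Members came from gene names. Members and lists were chosen with earlier results of these data known. By the rule, each comparison names per role the 3 members with the largest change, the 2 with the smallest or opposite change, those past the threshold in footprints or efficiency, and the paralog sets. Other members named were chosen after their values were seen. Alternatives were pseudocount, filter, scaling, replicate block and left-out libraries. Footprint libraries of the same number deviated together (correlations 0.255, 0.423 and 0.162), which by a limit of 0.1 set for every pair counts them as pairs. The unmatched Het library 1 and KO library 3 were just under that limit, at 0.098. The p-values given for footprints and efficiency come from the fit without this block, unless the block is named. With the block, 13 members had an unadjusted footprint p under 0.05 (limma), against 7 without it, and 0 passed the threshold. For mRNA the same check gave 0.627. With 2 libraries a group, swapping the numbers only turns its sign, so it cannot decide whether they are pairs.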

Additional observations from a re-analysis of the deposited data

How the results depend on the processing

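No change past a threshold in mRNA, efficiency or single oocytes turned its direction in an alternative. Differences that missed it could change sign, as Cox5a mRNA did with median scaling, and the direction of the Atp5b tail turned with the control used. The 23 members changed in mRNA became 13 without the filter on low values, which tests more genes, and 14 to 26 when 1 library was left out, with 14 without KO mRNA library 2. With the replicate number as a block, 33 members changed in mRNA (32 up and Cox10 down), although whether those libraries are pairs is not known. The 1 member changed in efficiency became 0 without the filter, 0 with median scaling and 0 with the replicate block, and 0 to 3 when 1 library was left out. Members called then were Cox17 without Het footprints 1, Cox6a1 without Het footprints 3, Atp5g3, Cox5a and Uqcr10 without KO footprints 1, and Atp5k and Cox7b without KO footprints 3. The causes were not tested. Members with changed footprints stayed at 0 in every alternative, the replicate block included, and leaving out any KO footprint library left 0 calls over all genes. Members past 4-fold in single oocytes went from 23 to 37 with median scaling. Members with tails longer in both KO libraries went from 0 to 1 with MII wild type as reference (Atp5b), and were 0 to 1 when 1 KO library was left out. Members with shorter tails in MII went from 2 to 0 with MII Btg4 Het in place of wild type, and to 1 with a limit of 40 nucleotides. Few reads per member limit the MII and Btg4 footprints.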
